A study of Homo sapiens with 8 samples.

Results

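The 10 tight junction genes described here, 8 claudins (CLDN1, CLDN2, CLDN3, CLDN4, CLDN7, CLDN12, CLDN15 and CLDN23), occludin (OCLN) and the scaffold gene TJP1, were measured across 8 mRNA libraries from HT29 cells. They were taken by name from a table of 38148 genes and make up 10 of them. The names were chosen with earlier results of the same 8 libraries known, so the members count as selected on their levels in all 4 groups. Each member's levels and differences are therefore given as a description, without a test. All 10 reached the filter on low values, which 14219 genes reached in all. It asked for a mean log2 level over the 8 libraries of at least 4.58, the level of 1 RPM (reads on a gene relative to all reads on genes, in parts per 1e6). Since log2 levels were averaged, a gene whose RPM averaged 1 or a little more could miss it.

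Tight junctions seal the space between neighbouring epithelial cells near their apical surface. Claudins are membrane proteins with a pair of extracellular loops that meet claudins of the next cell, and the mixture of claudins sets which ions and molecules pass between cells. Some act mainly as barriers, others form channels, and occludin and the ZO scaffold proteins shape and anchor the strands on the cytoplasmic side. In colonic epithelium the claudin mixture changes along the crypt and is altered in many colorectal tumours.

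The HT29 line comes from a human colorectal cancer and carries a mutation in BRAF, and selumetinib inhibits the kinases MEK1 and MEK2 downstream of RAF. The study asked how gene expression differs in the rare cells that enter the cell cycle while the drug is present. Cells were left untreated or kept in 1 µM selumetinib for 24 h, fixed with glyoxal, stained for cyclin B1 (CCNB1, a protein that accumulates towards mitosis) and separated by flow sorting into a fraction without and a fraction with the protein. The 4 groups are untreated CCNB1-negative, untreated CCNB1-positive, selumetinib CCNB1-negative and selumetinib CCNB1-positive cells, with 2 libraries each, all from the same line in the same fixed and stained state. The sources do not say whether the 2 libraries of a group came from separate cultures, so the errors and p-values measure only the spread between these libraries, which may be technical.

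The labels of the 8 libraries conflict. Each title names the other treatment and the other fraction than the short description does, and the field for the growth medium goes with the titles on treatment. The columns of the table carry the names of the descriptions, which were followed here. If the titles were right, each selumetinib difference below would belong to the other fraction and change its sign. CCNB1 mRNA, which the sorting marker encodes, stood at a log2 level of 11.66 and 12.01 in the libraries described as untreated CCNB1-negative and at 13.79 and 14.05 in those described as untreated CCNB1-positive. It was 7.92 and 7.22 against 12.76 and 12.53 in the corresponding treated libraries. All 5 genes of a MEK output list (DUSP6, SPRY4, ETV4, ETV5 and PHLDA1) were called lower in the libraries described as treated, in both fractions, with log2 differences from -3.10 to -1.06. Read by the titles, CCNB1 mRNA would be higher in the CCNB1-negative fraction of each treatment, and all 5 genes would be higher with the MEK inhibitor.

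Short stretches of the promoters are shown because they hold letters of motifs read by factors downstream of ERK or by repressors of junction genes. RefSeq promoter sequences (GRCh38.p14, 250 bases before to 50 bases after a start) were matched by symbol for 9 of the 10 members, in 15 windows. The capitals mark the motif on the gene's strand, 5′ to 3′, or its reverse complement. The AP-1 motif TGANTCA was found in the windows of CLDN2, CLDN4 and CLDN15, upstream of a start in each.
CLDN2, chrX:106900093-106900121, plus strand: tatttttctccTGATTCAtctcatgccaa
CLDN4, chr7:73830746-73830771, plus strand: ctgggctgTGATTCAgtgtctgtctc
CLDN4, chr7:73830824-73830852, plus strand: agactggatagTGACTCAgggacccgggg
CLDN15, chr7:101238004-101238032, minus strand: ccaatgaaagcTGAGTCAgagacagacgc

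One of the windows of CLDN7 held the ETS core CCGGAA and the cyclic AMP response element TGACGTCA, and 5 copies of the E-box CACCTG that SNAI and ZEB repressors read. The first and second lines below show the ETS core and the response element, the third an E-box next to the ETS core, and the last an E-box of OCLN.
CLDN7, chr17:7262605-7262632, minus strand: ggggccacgacTTCCGGttcaggtgagt
CLDN7, chr17:7262576-7262605, minus strand: tgtcccttcggTGACGTCAggtcatcctcg
CLDN7, chr17:7262597-7262624, minus strand: gacttccggttCAGGTGagtgtcccttc
OCLN, chr5:69492503-69492530, plus strand: catccgagtttCAGGTGaattggtcacc

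Of 35116 promoter windows of the same length, 7.71% held TGANTCA, 17.2% CCGGAA, 20.6% CACCTG and 1.85% TGACGTCA on either strand, and none of the printed motifs overlaps another. Among the 15 windows of the members, 3 held TGANTCA, 1 CCGGAA, 5 CACCTG and 1 TGACGTCA. Besides CLDN7 and OCLN, the E-box was in windows of CLDN3 and TJP1. The GC box GGGCGG, read by SP1, was in 9 of the 15 windows and in 45.0% of all windows. The Grainyhead motif AACCGGTT and the letters TATAAA were in none of the 15 and in 0.134% and 11.5% of all. A match is only a description of letters within the window.

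Reads assigned to genes numbered 19114877 to 23916160 in the untreated libraries and 12696860 to 19976635 in the treated ones. Levels are given as log2 scaled reads, the log2 of a gene's reads after scaling each library to the largest, so that 1 unit is a doubling. Transcripts of the mitochondrial genome took 4.44% to 7.80% of reads in untreated and 11.9% to 14.8% in treated libraries, and the nuclear RNA MALAT1 0.303% to 0.386% and 2.01% to 4.42%. Scaling to the other nuclear genes instead was added as an alternative after seeing the data. This moved the median selumetinib difference of all tested genes from 0.05 to 0.36 in the CCNB1-negative fraction and from 0.17 to 0.42 in the CCNB1-positive one. The 8 colon epithelial markers, none without reads, summed to 10765 to 11911 RPM in untreated and 5952 to 10144 RPM in treated libraries. KRT8 and KRT18 held most of these reads and were called lower under selumetinib in CCNB1-negative cells only. EPCAM was called lower in both fractions, KRT19, VIL1 and CDX2 higher in both, and KRT20 and CDH1 in neither direction. The 6 mesenchymal and stromal markers summed to 0.680 to 1.09 RPM in untreated and 1.73 to 5.71 in treated libraries, 2 of them without reads in each group. Among them, COL1A1, a fibrillar collagen, was called higher under selumetinib in both fractions, by 1.81 ± 0.49 (SE) and 2.19 ± 0.49. Its untreated group means of 3.64 and 4.52 lay under the filter's log2 level of 4.58, which it reached only through its treated libraries. The part of these markers in the differences below was not tested. The 4 endothelial markers summed to 1.05 to 1.65 and the 4 blood markers to 0.788 to 2.60 RPM, with 0 to 2 markers of a list without reads in a group. In sorted bulk samples, fewer cells with a transcript and less of it per cell cannot be told apart.

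Compared per length, as RPM per kilobase of merged exon (± SD, n = 2), 3 barrier-type claudins were the most abundant members. In untreated CCNB1-negative cells CLDN3 stood first at 104 ± 1.70. CLDN7 followed at 73.4 ± 2.99 and CLDN4 at 69.9 ± 4.63, and the libraries of these neighbours overlapped. CLDN2, which forms a cation and water channel, had rank 4 of 10 at 32.9 ± 2.25. Next came TJP1 at 9.46 ± 0.77, CLDN12 at 8.85 ± 0.95, CLDN1 at 7.86 ± 0.25 and CLDN15 at 4.33 ± 1.06, of which TJP1 and CLDN12 overlapped. CLDN23 at 0.617 ± 0.051 and OCLN at 0.301 ± 0.026 were the scarcest. Untreated CCNB1-positive cells had the same order, with overlap between CLDN12 and CLDN1 only.

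Under selumetinib the order changed below CLDN3, which stayed first at 146 ± 27.7 among CCNB1-negative and 167 ± 32.7 among CCNB1-positive cells. CLDN4 had rank 2 at 75.7 ± 21.7 and 92.5 ± 21.2, and CLDN7 rank 3 at 31.8 ± 6.48 and 54.3 ± 7.35. CLDN2 went from rank 4 to rank 8, at 1.30 ± 0.772 in CCNB1-negative cells, where its libraries overlapped those of OCLN at 0.855 ± 0.102. In CCNB1-positive cells it stood at 3.72 ± 2.67. In CCNB1-negative cells CLDN15 and CLDN12 overlapped at ranks 5 and 6, and in CCNB1-positive cells CLDN1 and CLDN12 did, as did CLDN23 and OCLN at the bottom. These levels use exon lengths of GENCODE release 44, merged over all annotated transcripts of a gene, so levels and ranks depend on that length. It was 4.70 kb for CLDN4 and 1.27 kb for CLDN3. Before division by length CLDN4 stood above CLDN3 in every library, with means of 363 and 170 RPM over the 8 libraries. Which transcripts were present was not tested, and a shorter one would give a higher level per kilobase. Whether reads in introns were counted is not given in the sources used here.

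**Figure D1:**
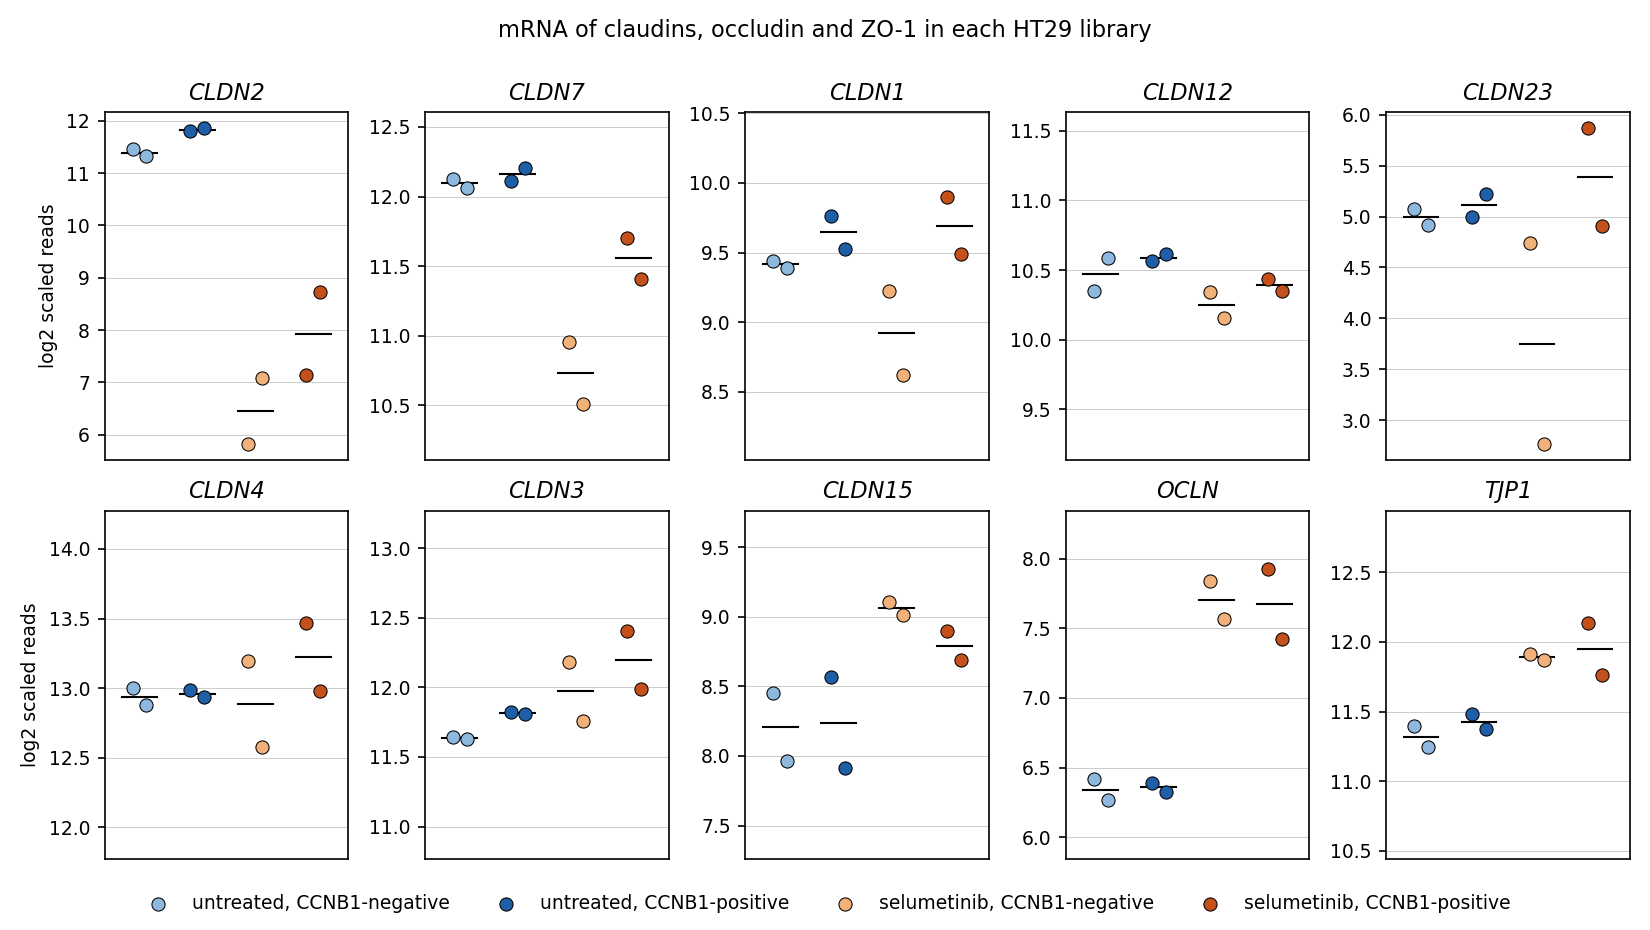
Level of each of the 10 genes in log2 scaled reads (vertical axis, its range differing between panels) in each library, coloured by group, with a bar at the mean of 2 libraries. CLDN2 lies between 11.33 and 11.86 in untreated and between 5.82 and 8.73 in treated libraries, whereas OCLN lies between 6.26 and 6.42 and between 7.42 and 7.93.

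The channel-forming claudins went in opposite directions. CLDN2 (ENSG00000165376, in GRCh38 on chromosome X, 106900164 to 106930861, plus strand) had log2 levels of 11.45 and 11.33 in untreated CCNB1-negative and 11.80 and 11.86 in untreated CCNB1-positive libraries. Under selumetinib it had 5.82 and 7.08 in CCNB1-negative and 7.14 and 8.73 in CCNB1-positive libraries. All 4 treated libraries lay far below all 4 untreated ones, and the treated pairs were wide apart. The underlying reads were 2042 to 3559 untreated, 36 and 80 in treated CCNB1-negative and 125 and 270 in treated CCNB1-positive libraries. The log2 difference was -4.94 ± 0.42 (SE), a 30.7-fold lower level, in CCNB1-negative cells, and -3.90 ± 0.42, or 14.9-fold lower, in CCNB1-positive cells. Leaving out 1 library at a time moved these values between -5.57 (without the second treated library of the fraction) and -4.31 (without the first), and between -4.69 and -3.10 likewise. Of the 5 MEK output genes, ETV5, at 6.26 and 6.89 in CCNB1-negative and 7.16 and 8.28 in CCNB1-positive libraries, ranked the 4 treated libraries as CLDN2 did, and DUSP6, SPRY4, ETV4 and PHLDA1 did not. The part of residual pathway output in the spread of CLDN2 was not tested. The minus-strand gene MORC4 overlaps CLDN2 and differed by -1.95 and -1.37. Strand handling in the counting is not given in the sources used here.

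CLDN15 (ENSG00000106404, chromosome 7, 101232092 to 101238820, minus strand), a cation channel of the intestine, had untreated log2 levels of 8.45 and 7.96 among CCNB1-negative and 8.57 and 7.91 among CCNB1-positive cells. Treated levels were 9.11 and 9.01, and 8.89 and 8.69. The treated libraries lay above the untreated ones in each fraction. The difference was 0.85 ± 0.23 among CCNB1-negative and 0.55 ± 0.23 among CCNB1-positive cells, and the untreated pairs were wider apart than the treated ones. In CCNB1-positive cells it was 0.23 without the second and 0.88 without the first untreated library, and 0.21 after quantile normalization.

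The barrier-type claudins differed in direction. CLDN7 (ENSG00000181885, chromosome 17, 7259903 to 7263983, minus strand), a claudin that binds the adhesion protein EPCAM, had log2 levels of 12.13 and 12.06 in untreated CCNB1-negative and 12.12 and 12.20 in untreated CCNB1-positive libraries. With selumetinib these were 10.96 and 10.51, and 11.70 and 11.41. Both treated pairs lay below the untreated ones and below each other without overlap, CCNB1-negative lowest. The difference was -1.36 ± 0.17 in CCNB1-negative cells, 2.57-fold lower, and -0.60 ± 0.17 in CCNB1-positive cells, 1.52-fold lower. The second value was -0.32 after quantile normalization and -0.35 on scaling to nuclear genes. AC003688.1, which lies on the same strand and overlaps CLDN7, had group means of 12.16, 12.22, 11.01 and 11.68 in the same order, and ELP5 on the plus strand, which overlaps its end, differed by -1.13 and -0.46. How far the reads of CLDN7 and AC003688.1 are shared cannot be told from these values, so the level of CLDN7 is uncertain.

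CLDN1 (ENSG00000163347, chromosome 3, 190305707 to 190322446, minus strand), a claudin needed for the barrier of the skin, had untreated levels of 9.44 and 9.39 in CCNB1-negative and 9.76 and 9.53 in CCNB1-positive libraries. Treated levels were 9.22 and 8.62, and 9.90 and 9.49. In CCNB1-negative cells the treated libraries lay below the untreated ones, a difference of -0.49 ± 0.21 that was -0.19 without the second treated library. In CCNB1-positive cells they overlapped, and the difference of 0.05 ± 0.21 turned to -0.0046 after quantile normalization and to -0.16 without the first treated library.

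CLDN3 (ENSG00000165215, chromosome 7, 73768997 to 73770270, minus strand) and CLDN4 (ENSG00000189143, chromosome 7, 73799542 to 73832693, plus strand), barrier claudins that serve as receptors of a clostridial enterotoxin, are near neighbours on chromosome 7. CLDN3 had 11.64 and 11.63 in untreated CCNB1-negative and 11.82 and 11.81 in untreated CCNB1-positive libraries, against 12.18 and 11.76, and 12.41 and 11.99, with the drug. The treated libraries lay above the untreated ones in each fraction, by 0.33 ± 0.18 and 0.38 ± 0.18. These became 0.12 and 0.17 without the first treated library of the fraction, 0.61 and 0.70 after quantile normalization, and 0.65 and 0.63 on scaling to nuclear genes. CLDN4 had 13.00 and 12.88, and 12.98 and 12.94, untreated, and 13.20 and 12.58, and 13.47 and 12.98, treated. Treated and untreated libraries of CLDN4 overlapped in both fractions. Its difference was -0.05 ± 0.21 in CCNB1-negative cells, which turned to 0.26 on scaling to nuclear genes, 0.45 after quantile normalization and 0.09 with limma-voom, and 0.27 ± 0.21 in CCNB1-positive cells.

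CLDN12 (ENSG00000157224, chromosome 7, 90383721 to 90513402, plus strand), a claudin without the usual PDZ-binding tail, stayed between 10.16 and 10.61 in all 8 libraries. The treated libraries were the lower ones in both fractions, by -0.22 ± 0.15 and -0.19 ± 0.15, but the sign turned to 0.10 and 0.06 on scaling to nuclear genes. The same-strand genes GTPBP10, AC006153.1 and CDK14 overlap its span. GTPBP10 differed by -0.59 and -0.66, AC006153.1 by -0.26 and -0.09, and CDK14 by 2.96 and 2.53. CLDN23 (ENSG00000253958, chromosome 8, 8701938 to 8704106, plus strand), a claudin of differentiated colonic epithelium, was close to the filter with 4 to 52 reads a library. Its treated CCNB1-negative libraries held 17 and 4 reads, log2 levels of 4.74 and 2.76, below the 5.07 and 4.92 of untreated cells. The difference of -1.24 ± 0.59 became -0.26 without the second and -2.23 without the first of these libraries. Its CCNB1-positive libraries overlapped, and the difference of 0.28 ± 0.59 turned to -1.07 after quantile normalization and to -0.21 without the first treated library.

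OCLN and TJP1 were both higher with the drug. OCLN (ENSG00000197822, chromosome 5, 69492292 to 69558104, plus strand), a MARVEL-domain membrane protein of the strands, had untreated log2 levels of 6.42 and 6.26 in CCNB1-negative and 6.39 and 6.32 in CCNB1-positive libraries. Treated levels were 7.84 and 7.57, and 7.93 and 7.42. Every treated library lay above every untreated one, by 1.36 ± 0.25 (2.57-fold) among CCNB1-negative and 1.32 ± 0.25 (2.49-fold) among CCNB1-positive cells. After quantile normalization these were 0.75 and 0.45. OCLN has a pseudogene copy, OCLNP1, which could share reads with it, so its level is uncertain. TJP1 (ENSG00000104067, chromosome 15, 29699367 to 29968865, minus strand) encodes ZO-1, which links claudin tails to actin. It had 11.39 and 11.25, and 11.48 and 11.37, in untreated and 11.91 and 11.87, and 12.14 and 11.76, in treated libraries. Again every treated library was above every untreated one, by 0.57 ± 0.16 and 0.53 ± 0.16. The second value was 0.34 without the first treated library, and the first was 0.88 on scaling to nuclear genes.

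Over the 10 members, treated and untreated libraries did not overlap for 4 genes higher and 5 lower in CCNB1-negative cells. Of all genes tested, 44.6% were higher and 41.9% lower in this sense. In CCNB1-positive cells 4 were higher and 3 lower, with 48.6% and 37.1% of all genes. The same 4, CLDN3, CLDN15, OCLN and TJP1, were the higher ones in both fractions, and CLDN2, CLDN7 and CLDN12 were lower in both. The members' median log2 difference was -0.14 among CCNB1-negative and 0.27 among CCNB1-positive cells, beside 0.05 and 0.17 over all tested genes. Since these values chose the members, nothing is read from the counts.

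**Figure D2:**
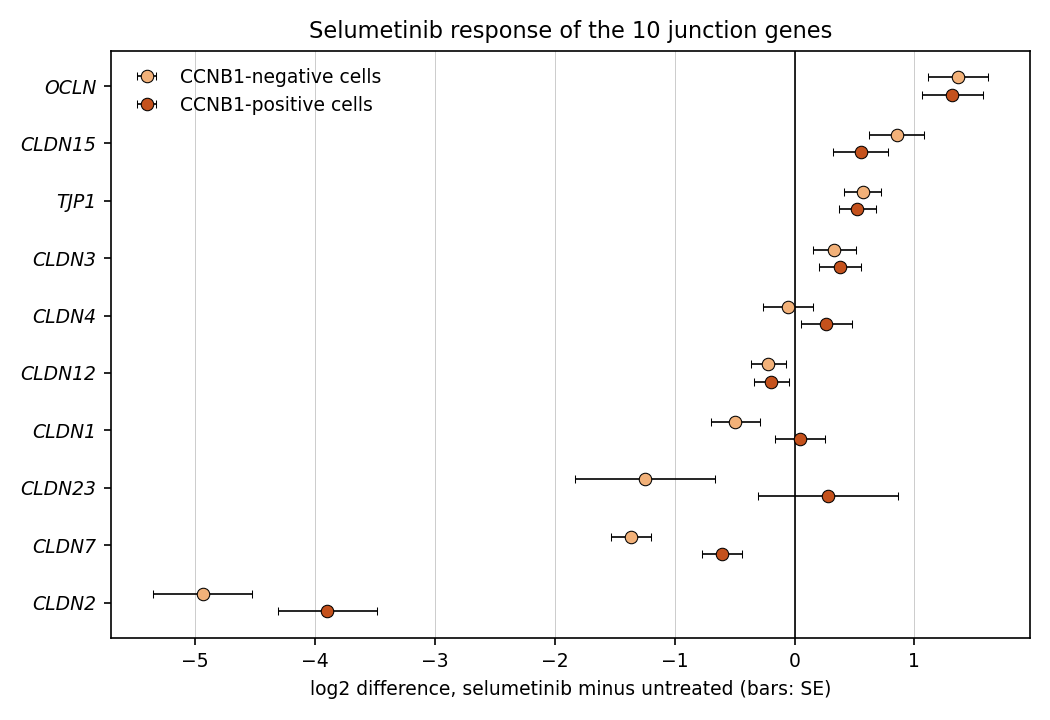
Log2 difference between selumetinib-treated and untreated cells (horizontal axis) for the 10 genes in CCNB1-negative and CCNB1-positive cells, with bars for 1 SE of the fit to all 8 libraries. CLDN2 lies at -4.94 and -3.90, OCLN at 1.36 and 1.32, and CLDN7 at -1.36 and -0.60.

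The make-up of the claudin sum differed between treated and untreated cells, while its total overlapped. The summed level of the 8 claudins was 302 ± 12 RPM per kilobase in untreated and 278 ± 58.1 in treated CCNB1-negative cells, and 333 ± 2.24 and 344 ± 62.0 in CCNB1-positive cells. CLDN2 made up 10.9% ± 0.31 (SD, n = 2) of this sum in untreated CCNB1-negative cells and 0.507% ± 0.383 in treated ones. The corresponding shares in CCNB1-positive cells were 13.3% ± 0.43 and 1.17% ± 0.99. CLDN7 went from 24.3% ± 0.028 to 11.4% ± 0.053 and from 22.9% ± 0.99 to 15.8% ± 0.71. CLDN3 went from 34.55% ± 0.81 to 52.6% ± 1.02 and from 35.3% ± 0.29 to 48.3% ± 0.81. CLDN4 stood at 23.1% ± 0.61 and 27.0% ± 2.15, and at 21.2% ± 0.49 and 26.8% ± 1.35. The remaining claudins, CLDN1, CLDN12, CLDN15 and CLDN23, each held at most 3.105% on average in any group. Shares of a sum depend on each other, and each is free of the scaling between libraries but not of the exon lengths used.

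**Figure D3:**
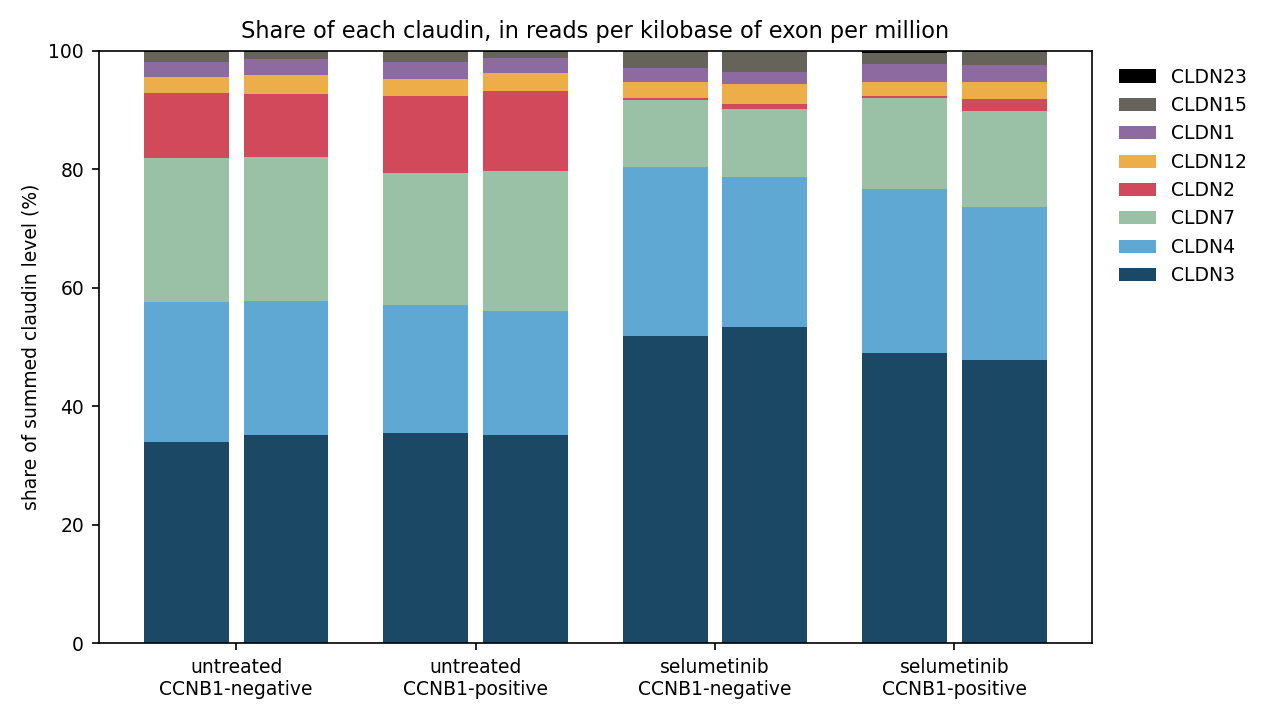
Share of each of the 8 claudins in their summed level, in percent of RPM per kilobase of exon (vertical axis), as stacked bars for the 2 libraries of each group. The CLDN2 band falls from 10.9% and 13.3% in untreated to 0.507% and 1.17% in treated cells, and the CLDN3 band widens from 34.55% and 35.3% to 52.6% and 48.3%.

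The fractions were then compared within each treatment. In untreated cells the CCNB1-positive libraries lay above the CCNB1-negative ones for CLDN1, CLDN2 and CLDN3 and below for none, with 16.3% and 28.0% of all genes higher and lower. The differences of the 10 members ran from 0.02 for OCLN to 0.44 ± 0.42 for CLDN2. Under selumetinib 5 members, CLDN1, CLDN2, CLDN7, CLDN12 and CLDN23, were higher in CCNB1-positive cells and CLDN15 was lower, with 33.0% and 31.0% of all genes. The largest of these were CLDN23 at 1.64 ± 0.59, CLDN2 at 1.48 ± 0.42, CLDN7 at 0.82 ± 0.17 and CLDN1 at 0.77 ± 0.21. Single treated libraries weighed on them: CLDN23 was 0.65 without the second and 2.63 without the first CCNB1-negative library, CLDN1 0.47 and 1.07 likewise, and CLDN2 0.68 without the second and 2.28 without the first CCNB1-positive library. In both treated fractions CLDN2 was higher in the second library and every other member in the first. Deviations of same-numbered treated libraries correlated at 0.428 over all tested genes. Leaving out 1 library breaks this match, so these moves, and those of the differences between responses, can carry a shift that both fractions share. For CLDN15 the difference was -0.27 ± 0.23. OCLN at -0.03 ± 0.25, CLDN3 at 0.23 ± 0.18, CLDN4 at 0.34 ± 0.21 and TJP1 at 0.06 ± 0.16 overlapped between the treated fractions.

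The selumetinib response of CCNB1-positive minus that of CCNB1-negative cells was 0.76 ± 0.24 for CLDN7, 0.54 ± 0.29 for CLDN1, 1.04 ± 0.59 for CLDN2 and 1.52 ± 0.83 for CLDN23. Leaving out 1 treated library took CLDN2 to 0.24 (without the second CCNB1-positive one) and 1.84 (without the first). It took CLDN23 to 0.53, CLDN1 to 0.24 and CLDN7 to 0.53 without the second CCNB1-negative one, and CLDN23 to 2.51 and CLDN1 to 0.84 without the first. The difference was -0.30 ± 0.32 for CLDN15, which was 0.03 without the first and -0.63 without the second untreated CCNB1-positive library, and lay between -0.05 and 0.32 for the other five. The median of the 10 was 0.18, beside 0.11 over all genes tested.

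A list of 48 other tight junction genes, none of them a member, was tested in the same fit of limma with a variance trend to all genes, with Benjamini-Hochberg adjustment over the 14219. It was written with earlier results of these data known. Of the 48 genes, 26 reached the filter. Of the 17 genes of the cytoplasmic plaque and of cell polarity tested, 10 rose under selumetinib in both fractions, or 58.8% against 33.3% of all genes. In this part of the list 1 gene, YBX3, fell in both, or 5.88% against 26.05%. In CCNB1-negative cells 13 of the 26 rose and 5 fell, which is 50% and 19.2%, against 38.2% called higher and 35.8% called lower among all genes tested. In CCNB1-positive cells 15 rose and 3 fell, or 57.7% and 11.5%, against 38.0% and 27.3%. The median difference over the 26 genes was 0.65 and 0.60, beside 0.05 and 0.17 over all genes. Of the 26, 12 rose in both fractions, or 46.2% against 33.3% of all genes, and 2 fell in both, LSR and YBX3, or 7.69% against 26.05%. The counts of genes that rose include CLDN11 and AMOT, which reached the filter's log2 level of 4.58 only through their treated libraries. Their untreated group means were 3.63 and 3.30, and 4.47 and 4.33.

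Of 16 other claudins, 14 stayed under the filter with at most 20 reads in any library, and 5 of these, CLDN5 among them, had no read at all. CLDN11, a claudin of myelin and testis, had log2 levels of 3.13 to 3.92 in the 4 untreated libraries, and 6.72, 6.32, 5.53 and 5.41 in the treated ones, from 8 to 14 and 27 to 67 reads. It was higher by 2.89 ± 0.44 and 2.17 ± 0.44, and SLC7A14-AS1 and AC026316.4 overlap its span. Its untreated group means of 3.63 and 3.30 lay under the filter's log2 level of 4.58, which it reached only through its treated libraries. Its difference is therefore given as a description, without a test. CLDN9, a claudin of the inner ear, rose in CCNB1-positive cells by 1.49 ± 0.37 (adjusted p = 0.0032). In CCNB1-negative cells it differed by 0.74 ± 0.37 (adjusted p = 0.090), a sign that quantile normalization turned to -0.08. The rise of CLDN9 in CCNB1-positive cells did not pass without the first treated library of that fraction (adjusted p = 0.075) or after quantile normalization (adjusted p = 0.31). Quantile normalization took the difference of CLDN11 in CCNB1-positive cells to 0.73.

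Among 7 other membrane proteins tested, ILDR1, an angulin of tricellular contacts, rose by 1.69 ± 0.23 (adjusted p = 1.7e-05) and 1.51 ± 0.23 (adjusted p = 8.1e-05). MARVELD3, a relative of occludin, rose by 0.58 in CCNB1-positive cells. LSR, the angulin also called lipolysis-stimulated lipoprotein receptor, fell by 0.81 ± 0.18 (adjusted p = 0.000927) and 0.42 ± 0.18 (adjusted p = 0.049), the second of which did not pass in 6 other settings or without any of 3 single libraries of that fraction, the second treated and both untreated ones (adjusted p from 0.051 to 0.90). In CCNB1-negative cells the apical polarity gene CRB3 fell by 1.55 and F11R, which encodes the adhesion molecule JAM-A, fell by 0.32 (adjusted p = 0.045). The call of F11R held at a minimum of 10 RPM and with the replicate block, and its adjusted p ran from 0.060 to 0.99 under each of the other alternatives and without each single library. The median of the 7 was 0.01 in both fractions.

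The plaque and polarity list had 17 genes tested, of which 11 rose and 2 fell in each fraction, or 64.7% and 11.8%, with 38.2% and 35.8% of all genes in the CCNB1-negative and 38.0% and 27.3% in the CCNB1-positive fraction. The medians were 1.03 and 0.78, beside 0.05 and 0.17. The scaffold gene MAGI1 rose by 3.22 ± 0.18 (adjusted p = 5.1e-09) and 2.46 ± 0.18 (adjusted p = 2.0e-07). Its untreated levels of 10.10 to 10.49 stood against 13.32 and 13.79 in treated CCNB1-negative and 12.58 and 12.72 in treated CCNB1-positive libraries. PATJ, a scaffold of the Crumbs complex, rose by 2.32 ± 0.18 and 1.59 ± 0.18, MAGI2 by 1.90 ± 0.25 and 1.48 ± 0.25, and MAGI3 by 1.65 ± 0.18 and 1.27 ± 0.18. TJP3 (ZO-3) and CGN (cingulin), which binds ZO-1, also rose in both. YBX3, a transcription factor held by ZO-1, fell by 1.56 ± 0.15 and 1.14 ± 0.15. The polarity gene PARD6A fell by 1.09 in CCNB1-negative cells. MAGI1-IT1 overlaps MAGI1, SLC25A23 overlaps CRB3 and AC005954.1 overlaps TJP3.

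Long genes were common among those that rose. The median span of the 12 list genes higher in both fractions was 115 kb, with 685 kb for MAGI1, 436 kb for PATJ, 1437 kb for MAGI2 and 295 kb for MAGI3. For the 2 list genes lower in both it was 21.9 kb. Over all tested genes the median span was 59.2 kb for genes higher and 21.7 kb for genes lower in both fractions. Among the members the span was 269.5 kb for TJP1 and 65.8 kb for OCLN, but 1.27 kb for CLDN3 and 6.73 kb for CLDN15, which were also higher. Of the members lower in both fractions, CLDN12 spanned 130 kb, CLDN2 30.7 kb and CLDN7 4.08 kb. The part of gene span in these differences was not tested.

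**Figure D4:**
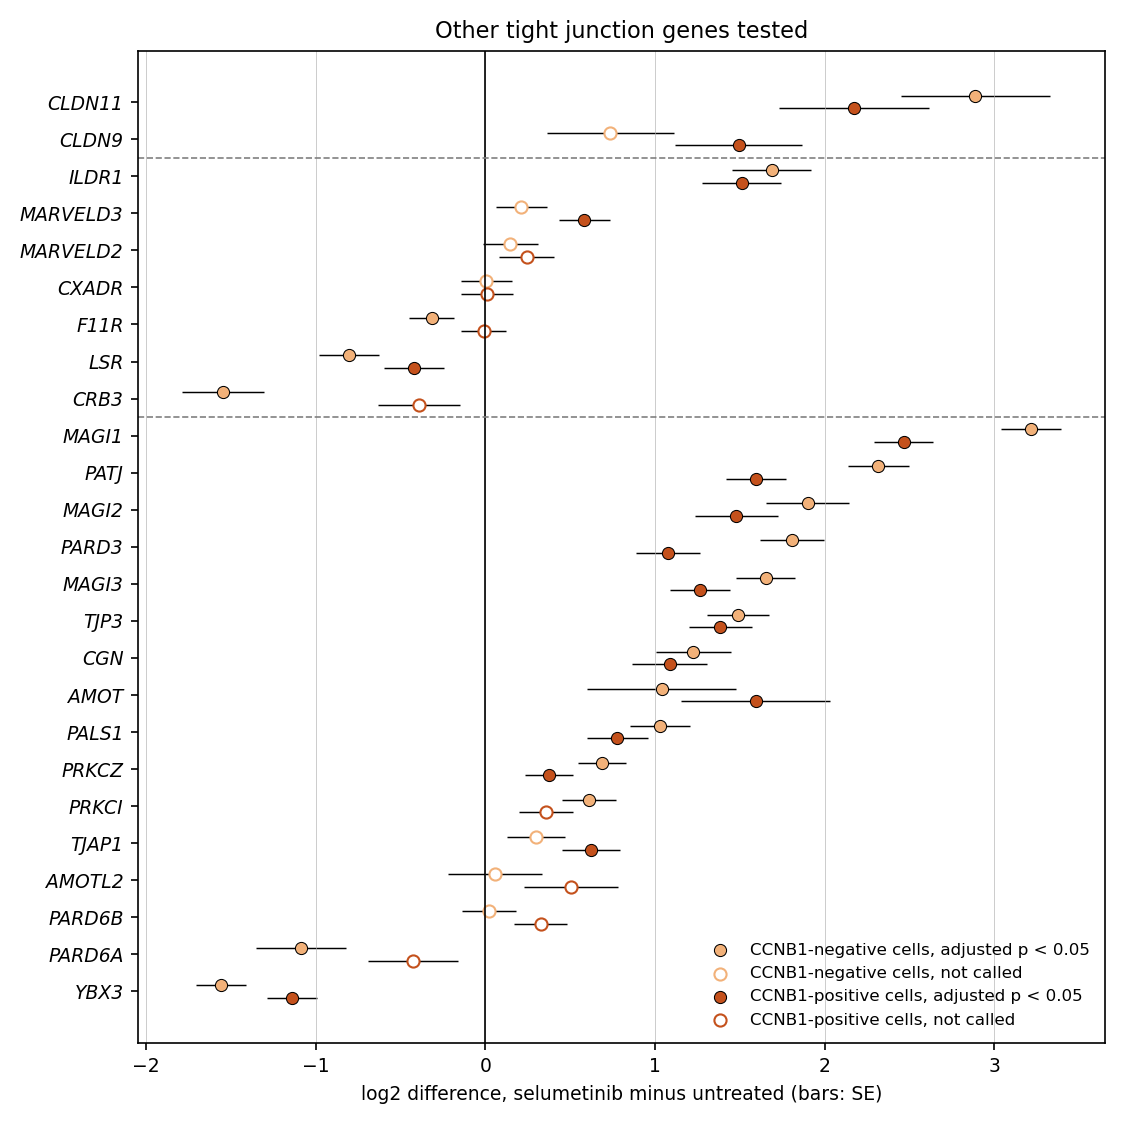
Log2 difference between selumetinib-treated and untreated cells (horizontal axis; bars, 1 SE) for 25 of the 26 other tight junction genes tested, in CCNB1-negative and CCNB1-positive cells, with filled points for adjusted p under 0.05 and open points for genes not called. Dashed lines separate claudins, other membrane proteins, and plaque and polarity proteins, among which MAGI1 lies farthest to the right at 3.22 and 2.46.

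In untreated cells limma called none of the 26 genes different between the fractions, against 1.36% higher and 1.51% lower among all genes, and at an unadjusted p under 0.05 it called 1 higher and 1 lower. Voom on the recovered reads called none either. Under selumetinib CRB3 and YBX3 were higher in CCNB1-positive cells and MAGI1, MAGI3, PATJ, PALS1 (listed as MPP5) and PARD3 lower, with 13.8% and 7.87% of all genes. These 2 higher calls became 5 without the first treated CCNB1-negative library, 0 without the second and 0 without the first treated CCNB1-positive one, and the 5 lower calls became 1 without either of the last 2. No gene of the list was called for a difference between the responses, against 4.99% and 0.345% of all genes, with 1 higher and 3 lower at an unadjusted p under 0.05 and none with voom.

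A further list held 12 genes that bind, cleave or regulate claudins, all of which were tested. Of these, 6 rose and 2 fell among CCNB1-negative and 7 rose and 1 fell among CCNB1-positive cells, with 38.2% and 35.8%, and 38.0% and 27.3%, of all genes. The medians were 0.48 and 0.74, beside 0.05 and 0.17. EPCAM, the partner of CLDN7, fell by 1.34 ± 0.18 among CCNB1-negative and 0.83 ± 0.18 among CCNB1-positive cells, with levels of 14.21 and 14.45, and 14.06 and 14.25, untreated and 13.14 and 12.84, and 13.37 and 13.29, treated. WNK4, a kinase that phosphorylates claudins, rose by 2.30 ± 0.21 (adjusted p = 4.1e-07) and 1.32 ± 0.21 (adjusted p = 0.000115), and COA3 overlaps it. MYLK, the myosin light chain kinase that opens junctions, rose by 1.54 ± 0.22 and 1.35 ± 0.22, and MYLK-AS1 overlaps it. The membrane protease gene PRSS8 rose by 1.27 ± 0.15 and 1.20 ± 0.15, and ARHGEF11, whose product ZO-1 recruits, by 1.42 ± 0.19 and 1.05 ± 0.19. SPINT2, an inhibitor of such proteases, fell by 1.10 ± 0.22 in CCNB1-negative cells.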

How the data were processed

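Messenger RNA was measured in 8 libraries of sorted HT29 cells, in 4 groups of 2. According to the methods and the processing notes, poly(A) RNA was made into directional libraries (NEBNext), trimmed with Trim Galore 0.5.0, mapped to GRCh38 with HISAT2 2.1.0 and quantified per gene in SeqMonk. Strand setting, treatment of introns and annotation release of the deposited table are not given in the sources used here. The deposited values are log2 reads per gene that the authors scaled to the largest library. Undoing the scaling gave whole reads (within 0.02) for 99.92% to 99.96% of genes with reads, and a gene without reads stands at the log2 of 0.9 read. Replicates differed beyond sampling noise in every group (chi-square of 17.3 to 33.5 per gene), so no library was counted as a repeat of another.

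From these values, limma 3.58.1 (R 4.3.3) with a variance trend was fitted to all 8 libraries with a coefficient per group. The fit covered the 14219 genes whose mean log2 level over the libraries reached 4.58, the level of 1 RPM. A count test was planned only for raw counts, and the study's own DESeq2 test was not repeated on a log2 table. Genes were called at a Benjamini-Hochberg adjusted p under 0.05. Fold changes of genes with few reads are less certain, and errors cover these libraries only. The members and gene lists were chosen with earlier results of these data known. Named genes are the members, other claudins past the filter, in each list the 4 with the largest mean response among those called alike in both fractions, checks of sort and drug, and for each member the gene closest in pattern. Others are named where a count of 5 or fewer required it, or after their values were seen. Symbols and exon lengths were matched by gene ID to GENCODE release 44 (99.3% of IDs found), and promoters to RefSeq. Alternatives were another filter, pseudocount, scaling, a replicate block, pairs of groups alone, libraries left out, a threshold of 0.01 and limma-voom on the recovered reads. The script was tested on simulated data. A few items counted in the lists are not reported here by name.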

Additional observations from a re-analysis of the deposited data

How the results depend on the processing

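Of the member differences recomputed under the alternatives, 651 stayed within the spread between replicates and 89 moved beyond it. Many of the 651 could not move. Another filter, the replicate block, or leaving out a library of a group not compared returns the same difference for a member. The count is therefore no measure of how stable the differences are. Of those of named list genes, 749 kept their direction and their side of the threshold, 30 no longer passed it, 6 newly passed it, and 1, CLDN9 in CCNB1-negative cells after quantile normalization, changed sign to -0.077. Scaling to nuclear genes without MALAT1 and limma-voom were added after seeing the data.

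The members' median selumetinib difference moved with the settings. In CCNB1-negative cells (-0.14) it became 0.0089 with voom, 0.0027 with a pseudocount of 0.1 RPM, 0.18 after quantile normalization and 0.18 on scaling to nuclear genes, and ran from -0.34 without the first to 0.065 without the second treated library. In CCNB1-positive cells (0.27) it became 0.41 with voom, 0.16 at a minimum of 10 RPM, 0.10 after quantile normalization and 0.52 on scaling to nuclear genes, and ran from -0.068 without the first to 0.55 without the second treated library. Without single libraries the median ran from 0.035 to 0.18 between untreated fractions, from 0.047 to 0.54 between treated fractions and from -0.028 to 0.33 for the difference between responses, the extremes in the last 2 coming without the second and without the first treated CCNB1-negative library.

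The counts of tight junction list genes that rose or fell in CCNB1-negative cells (13 and 5) stayed within 1.5 times, from 9 (at a minimum of 10 RPM) to 17 (on scaling to nuclear genes) and from 4 to 5, and from 12 to 13 and from 4 to 5 without single libraries. In CCNB1-positive cells the 15 that rose ran from 12 to 16 without single libraries and from 10 (at a minimum of 10 RPM) to 19 (without a filter, or on scaling to nuclear genes) in the other settings, and the 3 that fell became 1 with voom, without a filter, with the pseudocount, on scaling to nuclear genes, at a threshold of 0.01 and without the second treated or either untreated library of that fraction (range 1 to 3). Between treated fractions the 2 higher calls became 1 at a threshold of 0.01 (0 to 5 without single libraries). The 5 lower calls became 2 without a filter, 3 in the pair of groups alone and 2 at 0.01 (1 to 6, with 3 without the second treated or second untreated CCNB1-positive library). The difference between responses gave 1 lower call after quantile normalization, and 2 higher and 3 lower without the first treated CCNB1-negative library (ranges 0 to 2 and 0 to 3).

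The fractions of a treatment share replicate numbers, but these were not taken as pairs, since no label says that same-numbered libraries share a culture. Deviations of same-numbered libraries correlated at 0.352 and 0.428 between fractions of a treatment and from -0.088 to 0.082 otherwise. The errors of the differences between fractions leave out such a match. The replicate block is a term common to all groups, so it cannot model a match held within a treatment. With the replicate block the list counts were 14 and 5 in CCNB1-negative and 17 and 3 in CCNB1-positive cells, and the block, like 5 other settings, newly called CLDN9 in CCNB1-negative cells (adjusted p = 0.038). Of all calls, 51.6% and 58.1% were higher under selumetinib in the 2 fractions, 63.1% and 71.9% on scaling to nuclear genes, and 48.0% and 47.1% after quantile normalization. For CCNB1-positive against negative cells the share was 47.5% untreated and 63.6% treated, 65.7% and 46.5% after quantile normalization, and 48.1% and 53.2% on scaling to nuclear genes. For the difference between responses it was 93.5% and, after quantile normalization, 69.2%.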

Other observations

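Adherens junction and desmosome genes, 18 tested, moved in both directions under selumetinib. In CCNB1-negative cells 7 rose and 5 fell and in CCNB1-positive cells 4 rose and 3 fell, or 38.9% and 27.8%, and 22.2% and 16.7%, with 38.2% and 35.8%, and 38.0% and 27.3%, of all genes. The medians were 0.21 and 0.22, beside 0.05 and 0.17. AFDN (afadin, which ties nectins to actin) rose by 0.73 ± 0.15 (adjusted p = 0.000515) and 0.99 ± 0.15 (adjusted p = 6.7e-05), and NECTIN4, an adhesion receptor, by 0.75 ± 0.23 and 0.97 ± 0.23. CTNNB1 (β-catenin) fell by 0.98 ± 0.18 and 0.56 ± 0.18, and the desmosomal plakophilin PKP3 by 1.47 ± 0.17 (adjusted p = 2.8e-06) and 1.08 ± 0.17 (adjusted p = 8.3e-05). The fall of CTNNB1 in CCNB1-positive cells no longer passed after quantile normalization, on scaling to nuclear genes, or without the second treated or second untreated library of that fraction, where its adjusted p ran from 0.092 to 0.17.

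Of 13 transcription factors known to act on junction genes, 10 were tested; 6 rose and 2 fell in CCNB1-negative cells, and 5 rose and 2 fell in CCNB1-positive cells, with the same shares of all genes as above. The medians were 0.68 and 0.62. GRHL2, a Grainyhead factor of epithelia, rose by 1.88 ± 0.16 (adjusted p = 1.7e-07) and 1.47 ± 0.16 (adjusted p = 4.1e-06). HNF4A rose by 1.24 ± 0.17 and 0.85 ± 0.17, and the intestinal factor CDX2 by 1.06 ± 0.32 and 1.14 ± 0.32. SNAI1, a repressor of claudin and occludin genes, fell by 2.17 ± 0.43 (adjusted p = 0.000402) and 1.19 ± 0.43 (adjusted p = 0.025). It had few reads, 48 to 70 in untreated, 13 and 6 in treated CCNB1-negative and 21 and 19 in treated CCNB1-positive libraries. CDX2 no longer passed in either fraction after quantile normalization (adjusted p = 0.64 and 0.83), nor without the first treated library of the fraction in question (adjusted p = 0.098 and 0.086) or, in CCNB1-negative cells, the second untreated one (adjusted p = 0.054). ZEB1, a repressor that reads the same E-box, had 14 to 36 reads in untreated and 22 to 39 in treated libraries. It rose by 1.40 ± 0.41 (adjusted p = 0.0070) in CCNB1-negative cells and differed by 0.44 ± 0.41 (adjusted p = 0.36) in CCNB1-positive cells. After quantile normalization the first did not pass (adjusted p = 0.34) and the second was -0.94 (adjusted p = 0.046). The fall of SNAI1 in CCNB1-positive cells did not pass without a filter, on scaling to nuclear genes, or without either treated or the first untreated library of that fraction (adjusted p from 0.050 to 0.13). NECTIN4 did not pass after quantile normalization in either fraction, nor in CCNB1-negative cells without the first treated or second untreated library (adjusted p from 0.054 to 0.21).

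The genes closest to the members in pattern, by the root mean square difference of 8 centred log2 levels, were TNS4 (tensin 4) for CLDN2 at 0.303 and KRT13 (keratin 13) for CLDN23 at 0.272, and neither member had a tested gene within 0.2. The other nearest genes lay at 0.044 to 0.104: CDK2AP2 for CLDN1, CHMP6 for CLDN3, HOTAIR for CLDN4, TMEM250 for CLDN7, PRDM4 for CLDN12, ALPK3 for CLDN15, FAM47E-STBD1 for OCLN and DNM2 for TJP1. Within 0.2 lay 119 genes for CLDN1 and 1373 for CLDN12, so the nearest is one of many.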
